A study of Mus musculus with 6 samples.

Results

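The genes described here are 9 genes that mark stem cells of the intestinal crypt or answer to Wnt signalling: Lgr5, Ascl2, Axin2, Smoc2, Rgmb, Sox9, Lrig1, Ephb2 and Myc. They were chosen by name, and each matched 1 of the 43432 gene identifiers in the deposited count table. Expression was measured by poly(A) RNA-seq in colon tissue of 6 wild-type mice, with 1 library per mouse. The 3 resting mice carry the numbers 15, 17 and 19. The 3 stressed mice (10, 11 and 13) were dissected right after the last of 3 restraint episodes of 30 min each, restraint being a procedure that stresses a mouse by holding it in a tight enclosure. No allele or agent other than restraint is named for either group, and age and sex are not given in the labels. The protocol note on restraint stands on the records of both groups, so the grouping rests on the treatment label. The libraries held between 16425525 and 19819267 counts.

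The lining of the colon is renewed from stem cells at the base of crypts. There, Wnt ligands from the surrounding stroma stabilise beta-catenin, which enters the nucleus and switches on target genes together with TCF/LEF factors. R-spondins strengthen the signal by binding LGR receptors, and Wnt activity falls as cells move up the crypt and differentiate. Some target genes encode inhibitors of the pathway and so form a feedback loop. Whole colon tissue also holds muscle, stroma, nerves and immune cells, and a lower level in such a sample can mean fewer crypt cells or less RNA per cell, which cannot be told apart.

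The colon label was checked against marker genes. The carbonic anhydrase gene Car1 of colonocytes had a mean of 9049 CPM at rest and 12402 CPM after restraint (CPM, counts scaled to a common library size with TMM normalisation). Aqp8, a colonocyte water channel gene, had 124.6 CPM at rest and 59.7 CPM after restraint (log2 fold change -1.06 ± 0.29 (SE), edgeR adjusted p = 0.462), and Car1 had 0.45 ± 0.12 (edgeR adjusted p = 0.461). The small intestinal genes Apoa4 and Defa24 had at most 0.0608 CPM in any library, while the 8 small intestine markers together reached 110 to 119 CPM at rest and 125 to 169 CPM after restraint. Not all 8 were near 0: Alpi had means of 63.6 CPM at rest and 54.5 CPM after restraint, and Fabp6 5.09 and 10.1 CPM. At an unadjusted edgeR p under 0.05, 3 of the 5 tested were higher and 1 lower, against 6.92% of all tested genes. The groups did not overlap for 3 of the 5, against 12.7% of all tested genes, and 0 passed by adjusted p. The summed level of 12 pan-epithelial markers was between 12434 and 14357 CPM in resting mice and between 13624 and 14293 CPM in stressed mice.

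The promoter windows of RefSeq (GRCm38.p6, the build also called mm10) were searched for the TCF/LEF motif, the sequence through which beta-catenin partners bind DNA. Windows were given for 5 of the 9 genes (Axin2, Ascl2, Ephb2, Lrig1 and Rgmb), in 7 windows of 250 bases before to 50 after a start. The 250 bases before the start are shown for Axin2 and Ascl2, whose RNA is widely read as a Wnt response, and for Sp5, a direct Wnt target outside the 9 genes that was picked because its window holds a match. Capitals mark CTTTG or its reverse complement CAAAG, extended where the 7-base motif is complete.
Axin2, chr11:108920099-108920348, plus strand: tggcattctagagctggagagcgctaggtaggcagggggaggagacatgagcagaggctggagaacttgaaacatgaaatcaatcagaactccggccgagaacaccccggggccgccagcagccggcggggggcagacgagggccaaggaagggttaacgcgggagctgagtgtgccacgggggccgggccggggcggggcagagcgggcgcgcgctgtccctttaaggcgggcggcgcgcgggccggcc
Ascl2, chr7:142969265-142969514, minus strand: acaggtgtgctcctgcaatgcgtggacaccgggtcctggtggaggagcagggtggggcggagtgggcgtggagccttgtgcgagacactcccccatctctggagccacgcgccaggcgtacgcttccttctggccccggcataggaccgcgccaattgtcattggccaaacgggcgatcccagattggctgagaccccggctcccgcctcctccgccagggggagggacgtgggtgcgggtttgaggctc
Sp5, chr2:70474673-70474922, plus strand: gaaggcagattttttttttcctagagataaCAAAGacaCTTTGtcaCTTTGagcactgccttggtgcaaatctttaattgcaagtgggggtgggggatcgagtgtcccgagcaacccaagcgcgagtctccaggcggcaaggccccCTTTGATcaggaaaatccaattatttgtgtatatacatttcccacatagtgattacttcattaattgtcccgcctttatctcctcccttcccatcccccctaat

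The 7-base forms CTTTGAT and CTTTGAA, on both strands, were found in 0 of the 7 windows of the 9 genes, against 8.65% of all 32851 windows. The 5-base core CTTTG, also on both strands and contained in each 7-base form, was in 1 of the 7, a window of Rgmb, against 53.9% of all windows. Among the 16 windows of 9 other Wnt targets, 2 held a 7-base form, in Sp5 and Tnfrsf19, and 8 held the core. Windows of the same gene can overlap, as for Lef1 and Rgmb, so these counts are not of independent windows. The absence of a match says only that these letters are not in the window.

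None of the 9 genes changed between resting and stressed colon at an adjusted p under 0.05 (edgeR quasi-likelihood test, Benjamini-Hochberg over all 16119 genes tested). Over all tested genes 5 passed, or 0.0310%. All 9 genes passed the filter on low counts. Fold changes (stressed over resting) were below 0 on the log2 scale for 7 of 9, where 51.0% of all genes were below 0, and their median was -0.063, against -0.0033 for all genes. At an unadjusted edgeR p under 0.05 there was 1 of 9, Sox9, which was lower, against 6.92% of all genes in either direction and 3.41% lower. DESeq2 likewise called 0 of 9 and 0.347% of all genes. The 95% intervals of all 9 lay within a 2-fold change either way, and those of 7 lay within 1.5-fold, the exceptions being Sox9 and Lgr5. The summed level of the 9 genes was 364 to 415 CPM at rest and 351 to 361 CPM after restraint, without overlap. This sum includes Sox9, and how often sums of other gene sets of this size separate the groups was not computed.

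**Figure D1:**
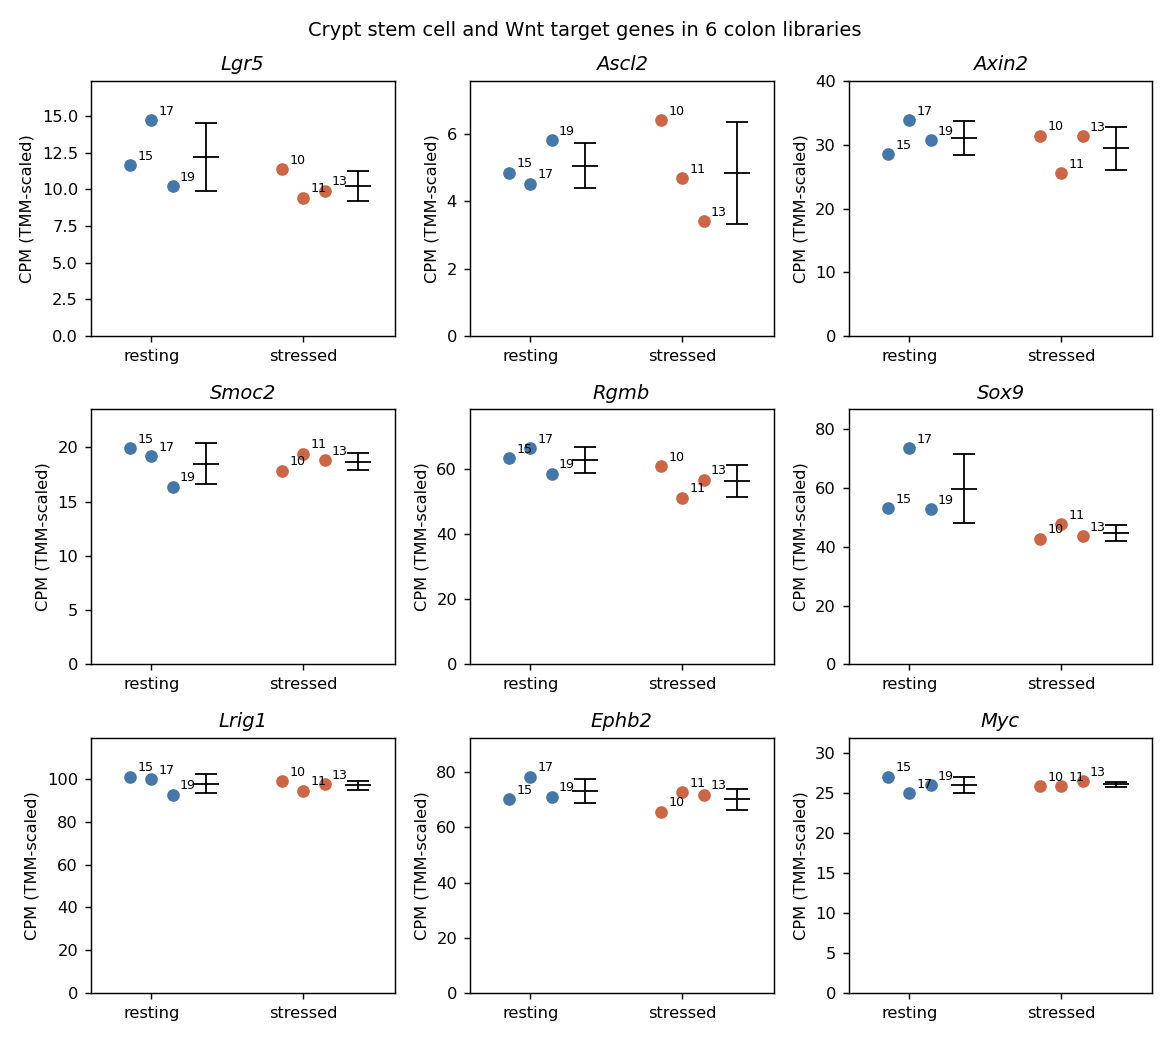
TMM-scaled CPM (vertical axis) of the 9 genes in resting (blue) and stressed (orange) colon, 1 point per mouse with its number; bars beside the points give the mean ± SD of 3 mice. The groups overlap in every panel except that of Sox9, where resting mouse 17 stands highest at 73.5 CPM.

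Among the genes for cell surface proteins, Lgr5, the R-spondin receptor that marks cycling stem cells at the crypt base, had the lowest level for its length. Its level was 11.7, 14.7 and 10.2 CPM in resting mice 15, 17 and 19, and 11.4, 9.43 and 9.90 CPM in stressed mice 10, 11 and 13. Mouse 17 was highest and the groups overlapped, since stressed mouse 10 lay above resting mouse 19. The means were 12.2 ± 2.30 CPM at rest and 10.2 ± 1.02 CPM after restraint (SD, n = 3 each). The log2 ratio of stressed to resting was -0.25 ± 0.15 (SE; edgeR adjusted p = 0.791). The counts behind these values ran from 163 to 251 per library, for which counting error alone gives a coefficient of variation of 7.1%, against 18.9% among the resting and 9.97% among the stressed mice. The log2 fold change of Lgr5 was -0.094 without mouse 17, -0.36 without resting mouse 19 (edgeR adjusted p = 0.628) and -0.34 without stressed mouse 10. Lgr5 (ENSMUSG00000020140) lies on chromosome 10 from 115450311 to 115587780 in mm10.

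Ephb2 encodes a receptor tyrosine kinase whose level falls from the crypt base upward and which keeps cells in place through repulsion by ephrin-B ligands. It stood at 70.3, 78.3 and 71.1 CPM in resting mice 15, 17 and 19 and at 65.7, 72.8 and 71.9 CPM in stressed mice 10, 11 and 13. The ranges overlapped, and only mouse 10 lay below all resting mice. Its log2 fold change was -0.063 ± 0.074 (SE; edgeR adjusted p = 0.911), with a 95% interval of -0.23 to 0.10. It was -0.012 without mouse 17 and -0.018 without mouse 10, and -0.080 to -0.091 with each of the other mice left out.

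Lrig1 encodes a membrane protein that restrains ERBB receptors and marks stem and progenitor cells. It stood at 101, 99.9 and 92.7 CPM at rest and 99.0, 94.6 and 97.7 CPM after restraint, in the same mouse order. The stressed mice all lay inside the resting range. Lrig1 had a log2 fold change of -0.012 ± 0.066 (SE; edgeR adjusted p = 0.982), with an interval of -0.16 to 0.13. The opposite-strand gene Slc25a26 shares 144 bases of exon with Lrig1 and had 62 to 131 counts, against 1608 to 1930 for Lrig1. The strand setting of the counting is unknown, so reads from the shared bases may have been counted for either gene.

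Rgmb, which encodes a membrane-anchored co-receptor for BMPs, the signals that oppose stemness toward the crypt top, was at 63.2, 66.2 and 58.4 CPM in resting mice 15, 17 and 19. In stressed mice 10, 11 and 13 it was at 60.8, 51.2 and 56.6 CPM. Mouse 10 lay above resting mouse 19, so the groups overlapped. The means were 62.6 ± 3.93 and 56.2 ± 4.84 CPM (SD, n = 3 each). The log2 ratio of stressed to resting was -0.16 ± 0.082 (SE; edgeR adjusted p = 0.757, interval -0.34 to 0.027). Without stressed mouse 11 it was -0.093.

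Smoc2, whose product is a secreted calcium-binding matrix protein of the Lgr5 stem cell signature, was at 19.9, 19.2 and 16.4 CPM at rest and 17.8, 19.4 and 18.8 CPM after restraint. The stressed values lay inside the resting range. Smoc2 had a log2 fold change of 0.016 ± 0.10 (SE; edgeR adjusted p = 0.985), with an interval of -0.22 to 0.25. Its sign turned with library totals or pan-epithelial scaling (-0.016 and -0.045).

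Axin2 encodes a scaffold of the complex that degrades beta-catenin, and as a Wnt target it is the classic negative feedback gene of the pathway. It was at 28.6, 33.9 and 30.7 CPM in resting mice 15, 17 and 19 and at 31.5, 25.6 and 31.4 CPM in stressed mice 10, 11 and 13. Stressed mice 10 and 13 lay within the resting range and mouse 11 below it. Axin2 had a log2 fold change of -0.078 ± 0.10 (SE; edgeR adjusted p = 0.919, interval -0.31 to 0.15), and without mouse 11 it was 0.015. The antisense gene Gm11670 overlaps 209 bases of Axin2 exon and had 0 to 8 counts.

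Ascl2, Myc and Sox9 encode transcription factors. Ascl2, a basic helix-loop-helix factor needed for the stem cell fate, had the fewest counts of the 9 genes, 56 to 125 per library. Its level was 4.84, 4.52 and 5.81 CPM in resting mice and 6.41, 4.69 and 3.40 CPM in stressed mice 10, 11 and 13. Stressed mice 10 and 13 were the highest and the lowest of all 6, so the stressed range enclosed the resting one. Its log2 fold change was -0.059 ± 0.23 (SE; edgeR adjusted p = 0.976), and it turned to 0.13 without mouse 13 and to 0.057 without resting mouse 19. The interval of -0.57 to 0.45 was the widest of the 9 genes.

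Myc, which drives growth and proliferation in crypt progenitors, was at 27.0, 24.9 and 25.9 CPM at rest and 25.8, 25.8 and 26.4 CPM after restraint. The stressed values lay inside the resting range. Myc had a log2 fold change of 0.0048 ± 0.079 (SE; edgeR adjusted p = 0.994), with an interval of -0.17 to 0.18. It turned to -0.026 with library totals and to -0.051 with pan-epithelial scaling.

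Sox9 encodes an HMG-box factor found in crypt stem and progenitor cells and also in tuft cells and enteric glia. It was at 53.2, 73.5 and 52.7 CPM in resting mice 15, 17 and 19 and at 42.8, 47.7 and 43.7 CPM in stressed mice 10, 11 and 13. All 3 stressed mice lay below all 3 resting mice, a pattern that 6.58% of all tested genes showed in the same direction. Resting mice 15 and 19 were within 1 CPM of each other, and mouse 17 stood apart from both. The means were 59.8 ± 11.9 and 44.7 ± 2.61 CPM (SD, n = 3 each), so that the stressed mean was 25.3% lower. The log2 fold change was -0.42 ± 0.12 (SE), with a 95% interval of -0.69 to -0.15. It did not pass the test over all genes (edgeR unadjusted p = 0.00581, adjusted p = 0.494; DESeq2 adjusted p = 0.184), and it ranked 185 by p among the 16119 genes. In mm10 Sox9 (ENSMUSG00000000567) lies on chromosome 11 from 112782224 to 112787760, with no other annotated gene overlapping it.

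The size of the Sox9 difference depended on mouse 17. Without that mouse the log2 fold change was -0.25 (edgeR adjusted p = 0.638), and with another mouse left out it lay between -0.39 and -0.50. The direction was the same under all 16 alternative settings, among them trended dispersion, which is edgeR's default and repeats the main fit. Sox9 passed under 2 of them, both of which called many more genes in all. Without the filter on low counts edgeR called 151 genes, or 0.588% of those tested, and Sox9 had an adjusted p of 0.0169. With gene-wise in place of trended dispersions, a setting added after the data were seen, it called 148 genes and Sox9 had 0.0383.

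**Figure D2:**
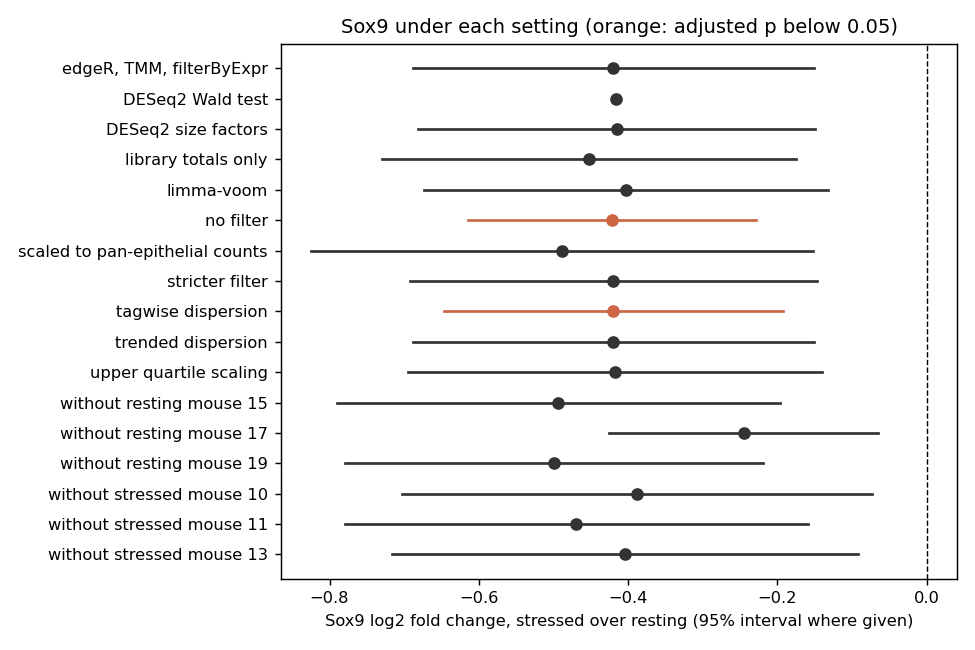
Log2 fold change of Sox9, stressed over resting (horizontal axis), under each setting (rows), with 95% intervals where the tool gives them; orange marks an adjusted p below 0.05. All points lie below 0, and the point nearest to 0 (-0.25) is the fit without resting mouse 17.

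Several cell type markers were read beside Sox9 in the same mice. Relative to the summed pan-epithelial markers, Sox9 stood at 3.94, 5.91 and 3.67 per 1000 epithelial CPM in resting mice 15, 17 and 19 and at 2.99, 3.50 and 3.14 in stressed mice 10, 11 and 13, again with no overlap. Of the other 8 genes, 0 separated the groups on this scale. The share of all tested genes that do so was not computed on this scale. On the CPM scale it was 12.7% in either direction. The 5 tuft cell markers summed to 44.5 to 56.4 CPM at rest and 48.9 to 54.4 CPM after restraint, and the 5 enteric glia markers to 16.6 to 17.1 and 18.4 to 19.9 CPM. The tuft sums overlapped, and the glia sums were higher in all 3 stressed mice. The 7 enteroendocrine markers summed to 233 to 359 CPM at rest, highest in mouse 17, and to 257 to 298 CPM after restraint. Sox10, the Sox factor that marks glia, was at 2.69 to 3.98 CPM over all 6 libraries.

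Atoh1, the factor that commits crypt progenitors to the secretory lineage, was likewise highest in mouse 17, and its groups did not overlap, as for 6.58% of all tested genes in this direction. It was at 84.2, 109 and 86.3 CPM in resting mice 15, 17 and 19 and at 56.7, 67.8 and 63.4 CPM in stressed mice 10, 11 and 13 (log2 fold change -0.57 ± 0.11 (SE), edgeR adjusted p = 0.186). Spdef, a factor of goblet cell maturation, had -0.30 ± 0.075 (edgeR adjusted p = 0.449). Of the 10 goblet and secretory markers, which include both, 8 were higher and 2 lower (median 0.20). Their summed level overlapped between groups, at 10041 to 11590 CPM at rest and 9404 to 13510 CPM after restraint.

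Mouse 17 and a gene of gut position were read beside these values as well. Mouse 17 had the highest level of the 6 libraries for 5 of the 9 genes (Lgr5, Axin2, Rgmb, Sox9 and Ephb2) and the lowest for 1, Myc. It also had the lowest summed pan-epithelial level (12434 CPM) and the highest summed fibroblast level (843 CPM, against 497 to 733 CPM in the others). Hoxa13, a gene of the distal gut, was at 15.5 and 11.6 CPM in resting mice 15 and 17 but at 1.82 CPM in resting mouse 19 and at 0.608 to 2.26 CPM in stressed mice. Of 3 tested distal colon genes Hoxa13 was the 1 lower in stressed mice. The other 2 were higher, with log2 fold changes of at most 0.26. Among the other cell type lists 0 genes passed. Higher in stressed mice were 8 of 8 enteric neuron, 5 of 5 adipocyte, 7 of 8 smooth muscle, 4 of 5 glia and 10 of 12 pan-epithelial markers. Of the 8 neuron markers, 4 had an unadjusted edgeR p under 0.05, against 6.92% of all tested genes. The groups did not overlap for 5 of the 8, against 12.7% of all tested genes. The neuron sum was 86.4 to 101 CPM at rest and 103 to 117 CPM after restraint, without overlap. Lower were 5 of 5 immune, 7 of 8 fibroblast, 5 of 8 colonocyte and 4 of 7 enteroendocrine markers, 2 of 4 tested tuft markers, 1 of 3 tested distal colon genes and 2 of 5 tested small intestine markers. Sums did not always follow these signs. The colonocyte sum was higher in all stressed mice, at 12064 to 15673 CPM at rest and 16341 to 17774 CPM after restraint. The immune sums overlapped, at 147 to 168 and 114 to 185 CPM, with stressed mouse 13 the highest. The part of these differences and of the marker sums in the Sox9 and Lgr5 values was not tested.

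Levels of different genes were set side by side per length, as CPM per kilobase of merged exons (RPKM), over all 6 libraries. Lrig1 was highest at 17.5 ± 0.580 RPKM (SD, n = 6), followed by Sox9 at 12.6 ± 2.73, Myc at 9.56 ± 0.255 and Rgmb at 7.75 ± 0.690 RPKM. Ephb2 (5.69 ± 0.323 RPKM) and Axin2 (5.50 ± 0.523) came next, then Ascl2 (3.05 ± 0.648) and Smoc2 (2.67 ± 0.186), and Lgr5 was lowest at 1.09 ± 0.188 RPKM. The ranges of Lrig1 and Sox9 met because of mouse 17, though Lrig1 was above Sox9 in each of the 6 libraries. Ephb2 and Axin2 overlapped, as did Ascl2 and Smoc2, each pair being in the same order in 5 of 6 libraries. The other neighbours in this order did not overlap.

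**Figure D3:**
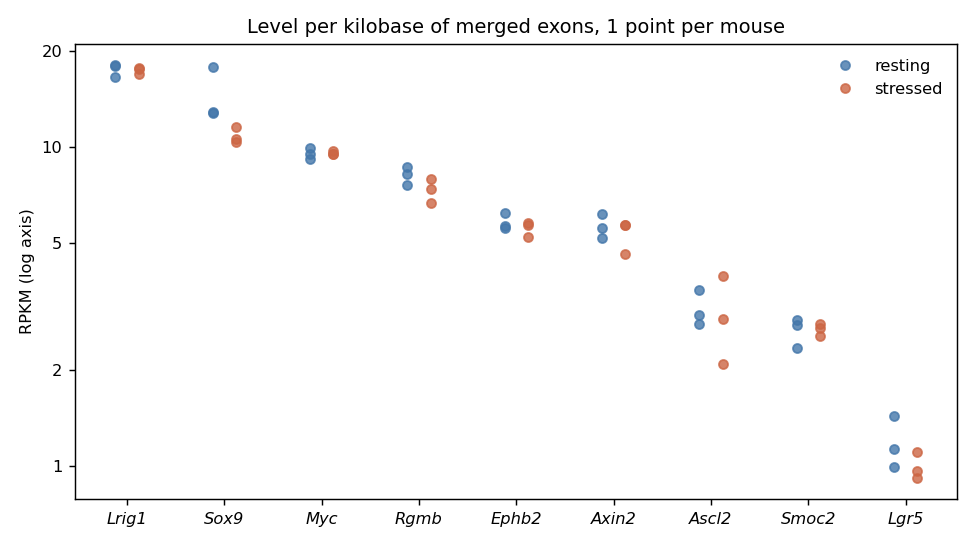
RPKM (vertical log axis) of the 9 genes in order of their mean level, 1 point per mouse, with resting mice in blue and stressed mice in orange. The levels run from about 1.09 RPKM for Lgr5 to 17.5 RPKM for Lrig1, and for Sox9 the stressed points lie below the resting points.

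The genes closest to Lgr5 and to Sox9 in their pattern over the 6 libraries were looked up among 11071 genes with a mean of at least 5 CPM, by Pearson correlation of log2(CPM + 0.5). Over 6 libraries the closest genes stand among others with high values: 26 of the 11071 genes lay above 0.95 for Lgr5 and 30 for Sox9. Closest to Lgr5 were Slc4a1ap (0.988), Taf1a (0.985), Ctsf (0.982), Dvl2 (0.978) and Galnt11 (0.976). Closest to Sox9 were Cttnbp2 (0.992), Brat1 (0.992), Foxa2 (0.990), Pofut2 (0.984) and Tinagl1 (0.984). Foxa2, a forkhead factor of endoderm, was at 9.03 to 15.1 CPM in resting mice, highest in mouse 17, and at 6.87 to 7.68 CPM in stressed mice (log2 fold change -0.67 ± 0.19 (SE), edgeR adjusted p = 0.494). These values include the difference between the groups and the high value of mouse 17.

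Other Wnt target genes gave no call either. Of 14 listed, 12 were tested, with 4 higher, 8 lower and a median log2 fold change of -0.11. None had an unadjusted edgeR p under 0.05 and none passed by adjusted p. The 14 genes summed to 295 to 310 CPM at rest and 261 to 294 CPM after restraint, without overlap. How often sums of other gene sets separate was not computed. The E3 ligase genes Rnf43 and Znrf3, which remove Wnt receptors from the cell surface as feedback, had log2 fold changes of 0.011 ± 0.087 and 0.037 ± 0.13 (SE). Nkd1, an intracellular feedback inhibitor, had -0.051 ± 0.13. Notum, which encodes a secreted Wnt deacylase, was too low to test, at 0 to 0.299 CPM.

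Ephb3, the close relative of Ephb2, was at 24.1, 26.3 and 21.7 CPM at rest and 17.5, 21.6 and 23.4 CPM after restraint (log2 fold change -0.21 ± 0.12 (SE), edgeR adjusted p = 0.782). Cd44, a hyaluronan receptor of crypt cells, had -0.19 ± 0.12, with 66.5 CPM in stressed mouse 10 and 89.1 to 99.9 CPM in the other 5 mice. Tnfrsf19, a receptor of the stem cell signature also called TROY, had -0.30 ± 0.23, and Apcdd1, a membrane Wnt inhibitor, -0.34 ± 0.21 at 2.18 to 3.46 CPM. Apcdd1 was the 1 gene of the 12 whose groups did not overlap, against 12.7% of all tested genes. Stressed mouse 10 was the lowest of the 6 for Ephb3, Cd44 and Tnfrsf19.

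**Figure D4:**
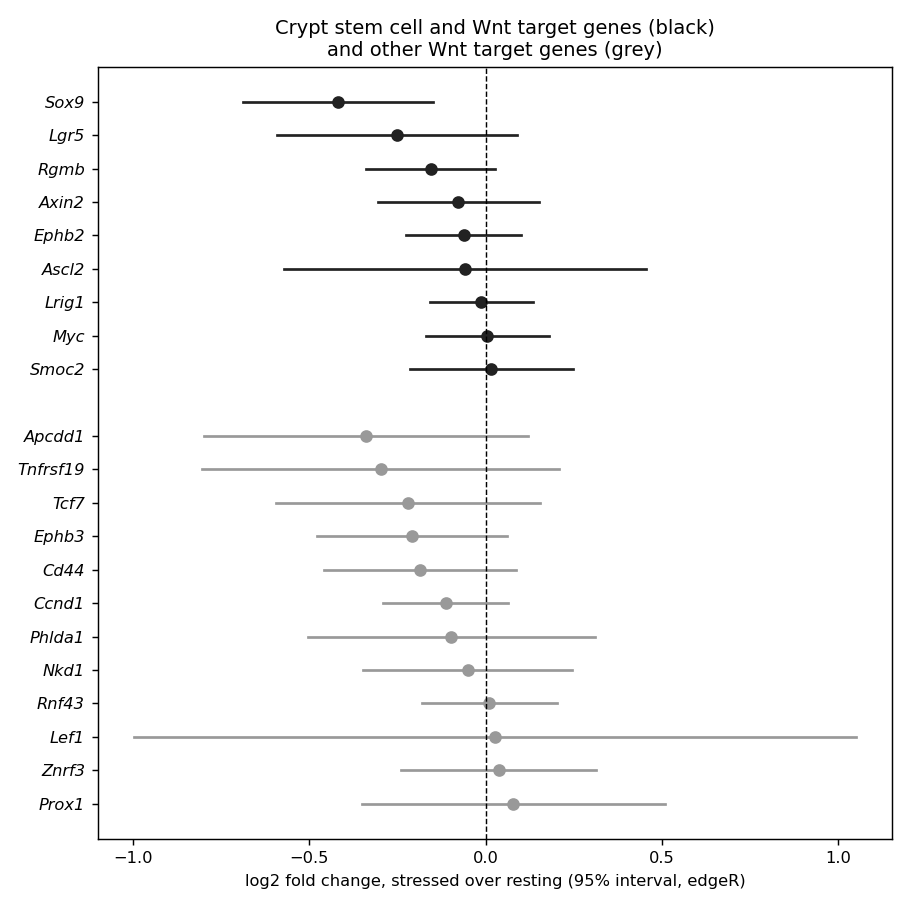
Log2 fold change, stressed over resting (horizontal axis), with its 95% interval from edgeR, for the 9 genes (black) and the 12 tested genes of the list of other Wnt targets (grey). The interval of Sox9 (-0.69 to -0.15) does not reach 0; those of the other genes shown all include it.

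None of the other genes of crypt and reserve stem cells passed, and 0 had an unadjusted edgeR p under 0.05. Of 11 listed, 10 were tested, with 2 higher, 8 lower, a median of -0.034 and log2 fold changes from -0.26 (Clu) to 0.053. The cotransporter gene Slc12a2 stayed between 461 and 514 CPM and the potassium channel gene Kcnq1 had -0.10 ± 0.084 (SE). Olfm4, a stem cell marker of human colon and mouse small intestine, had 0 counts in all 6 libraries, which allows up to 0.182 CPM in a library (3 counts, counting error only).

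Upstream of the target genes, receptors and ligands were read from lists of their own. Of 15 tested Wnt and R-spondin receptor genes 12 were lower and 3 higher (median -0.12), with 0 passing. The frizzled genes Fzd5 and Fzd10 had -0.18 ± 0.080 and -0.68 ± 0.34 (SE). Fzd10 is low, with means of 0.948 CPM at rest and 0.590 CPM after restraint. The R-spondin receptor gene Lgr4 was between 144 and 165 CPM in all mice. The 19 genes of the beta-catenin pathway core had 13 lower and 6 higher (median -0.045), with Tcf7l2, the main TCF gene of gut epithelium, at 0.17 ± 0.074 and Bcl9l, a beta-catenin coactivator gene, at -0.16 ± 0.080, and 0 passed. For comparison, 51.0% of all tested genes were lower.

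Of 15 tested ligand and antagonist genes, 6 were higher and 9 lower, and 0 passed. At an unadjusted edgeR p under 0.05 there were 1 higher and 3 lower, against 6.92% of all tested genes. The groups did not overlap for 5 of the 15, against 12.7% of all tested genes. Rspo1, an R-spondin, was at 0.897, 1.23 and 0.719 CPM at rest and 1.95, 1.74 and 2.49 CPM after restraint (log2 fold change 1.11 ± 0.30 (SE), edgeR adjusted p = 0.462). Wif1, a secreted Wnt inhibitor, was at 1.33 to 1.76 CPM at rest and 0.425 to 0.974 CPM after restraint (-0.98 ± 0.34, edgeR adjusted p = 0.590). Both are low, and both are among these 5.

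Partners of single members were read in the same way, and 0 of these genes passed. Among 11 ERBB receptors, ligands and LRIG relatives (7 higher, 4 lower), Egfr, the epidermal growth factor receptor that LRIG1 restrains, was at 40.0, 40.6 and 44.0 CPM at rest and 33.7, 36.2 and 33.2 CPM after restraint. The groups did not overlap, as for 6.58% of all tested genes in this direction, with a log2 fold change of -0.27 ± 0.074 (SE; edgeR adjusted p = 0.468), while Erbb2 had 0.15 ± 0.087. Among 13 tested BMP genes (6 higher, 7 lower), the receptor gene Bmpr2 had -0.19 ± 0.065 and the inhibitor gene Smad6 0.30 ± 0.10. Of 6 tested EphB and ephrin-B genes 4 were lower, among them Efnb3 at -0.64 ± 0.32, a gene under 2 CPM. Of 18 MYC partners and targets 11 were higher (median 0.020), with the MYC antagonist genes Mxd3 and Mxi1 at 0.68 ± 0.29 and 0.23 ± 0.099.

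DNA replication and mitosis genes, which are active in the transit amplifying cells above the stem cells, were mostly above 0. Of 21 tested genes 19 were higher and 2 lower, with a median log2 fold change of 0.20, against 49.0% of all genes higher. None passed. At an unadjusted edgeR p under 0.05 there were 5, all higher, where 567 of all 16119 genes were higher at that threshold. Ccnb1, the cyclin of mitotic entry, had 0.52 ± 0.18 (SE) and Tyms, thymidylate synthase, 0.33 ± 0.10 (edgeR adjusted p = 0.589 and 0.559). The summed level was 873, 769 and 986 CPM in resting mice 15, 17 and 19 and 925, 1046 and 1068 CPM in stressed mice 10, 11 and 13, so the groups overlapped. Mouse 17, which was highest for 5 of the 9 stem cell and Wnt target genes, was lowest for this sum.

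**Figure D5:**
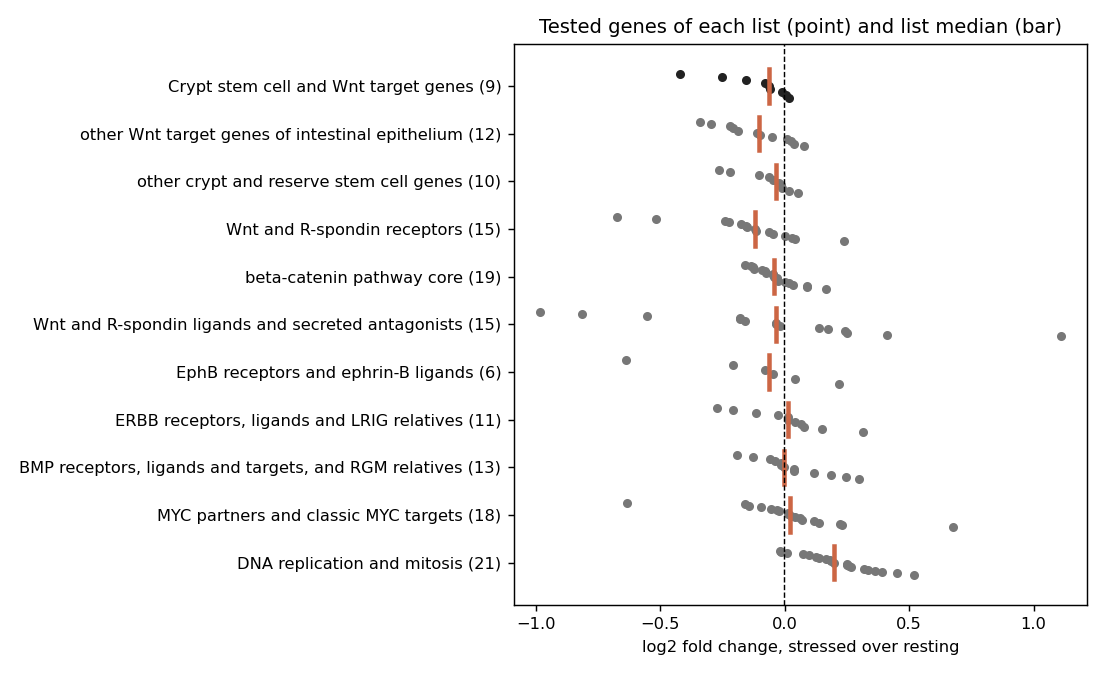
Log2 fold change, stressed over resting (horizontal axis), of the tested genes of the 9 stem cell and Wnt target genes (black) and 10 related lists (grey), with each list's median as an orange bar and the median of all genes tested as a dashed line; the number tested is in brackets. The medians run from -0.12 for Wnt and R-spondin receptors to 0.20 for DNA replication and mitosis.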

How the data were processed

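The deposited table holds raw read counts per Ensembl gene, as whole numbers, for 6 libraries. Per the submitters' processing notes, fastp, HISAT2 and the mm10 build were used; no label names the versions, the counter, its annotation or its strand setting. Per the labels' protocols, RNA with an integrity number above 9 went into stranded poly(A) libraries. Symbols were matched for 42462 of the 43432 identifiers, and loci and exon lengths came from GENCODE M21 on the same build. Counts were tested with edgeR 4.0.16 in R 4.3.3 (quasi-likelihood F test, filterByExpr with minimum count 10 and minimum total 15, TMM), which left 16119 genes. Adjusted p-values are Benjamini-Hochberg over all of these, with a threshold of 0.05. DESeq2 1.42.0 and limma 3.58.1 (voom) were alternatives. The test was checked on simulated counts.

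The 9 genes and the 23 gene lists beside them were chosen with earlier results of these data known. The genes named from a pathway list are those that pass or, where none does, the 2 with the smallest p, beside 7 fixed Wnt targets and the 5 genes closest to Lgr5 and to Sox9. Marker lists are given by counts and sums beside Car1, Aqp8, Atoh1, Spdef and Hoxa13, which the same rule names. The rule also names other marker genes, among them Grem1, Actg2, Cnn1, Epcam, Cdx2, Fabp4, Cd79a and Dclk1. These are not printed singly, so the choice among the named markers was not made by the rule. Lgr4, Slc12a2, Sox10, Apoa4, Defa24, Alpi, Fabp6 and Sp5 were named outside this rule, after their values were seen. Nothing in the labels names a batch. Each library has its own mouse number in the labels, so p-values measure the spread between mice.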

Additional observations from a re-analysis of the deposited data

How the results depend on the processing

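The count of changed genes over the whole table was 5, and it moved to 56 with DESeq2, 3 with limma-voom, 151 without the filter and 148 with gene-wise dispersions, and ranged from 1 to 14 with each mouse left out in turn. It was 1 without resting mouse 15 or stressed mouse 10, and 14 without stressed mouse 11. The count among the 9 genes was 0 and became 1 (Sox9, log2 fold change -0.42) without the filter and with gene-wise dispersions; it was 0 with any mouse left out. The cause of these moves was not tested. The number of the 9 with a log2 fold change below 0 was 7 to 9 over the 10 settings that keep all mice and 6 to 7 with a mouse left out, and the median was -0.12 to -0.059 and -0.13 to -0.024. Signs turned for 5 of the 9 genes: Myc (-0.026 with library totals, -0.051 with pan-epithelial scaling, -0.024 to 0.037 with a mouse left out), Smoc2 (-0.016, -0.045, and -0.061 to 0.076), Lrig1 (-0.046 to 0.015 with a mouse left out), Axin2 (-0.13 to 0.015) and Ascl2 (-0.32 to 0.13). Sox9, Lgr5, Rgmb and Ephb2 stayed below 0 in all 16 settings. With a mouse left out they ranged from -0.50 to -0.25, -0.36 to -0.094, -0.22 to -0.093 and -0.091 to -0.012. The trended dispersion listed as an alternative is what edgeR uses by default and gave the same values. No paired analysis was possible because the groups share no mouse number. With 56 to 125 counts per library, Ascl2 had the largest counting error of the 9 genes. Its coefficient of variation from counting alone was 10.6%, against 13.2% among the resting and 31.2% among the stressed mice.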
